A study of Drosophila melanogaster with 20 samples.

Results

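Late-neoplastic wing disc tumours of Drosophila that carried EGFR and psqRNAi (group EP_LNT, day 11, 4 arrays) were compared with early-hyperplastic tumours that carried EGFR alone (group E_EHT, day 4, 3 arrays). These are 7 of the 20 arrays of the series, chosen by the group names in the sample titles, and the comparison was read across all 13402 genes that could be named. The fourth E_EHT array, replicate 1, was left out because the submitters set it aside for technical problems. EGFR was part of the genotype in both groups. They differ in 2 things at once, the psqRNAi construct and the days of tumour growth, so that genotype and age cannot be told apart within this comparison. A further group, EP_EHT (EGFR and psqRNAi, day 4, 4 arrays), has the genotype of EP_LNT and the age of E_EHT. Its levels are given beside some of the main values, not all. At 12 hr, before tumours formed, the groups EP_Ctrl (EGFR and psqRNAi) and E_Ctrl (EGFR alone) had 4 arrays each. Each sample was total RNA of about 20 pairs of wing imaginal discs, whole and pooled, which the labels call biological replicates. The labels give neither the driver of the constructs nor the cells that carried them, and the histology behind the names hyperplastic and neoplastic was not measured by the arrays.

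The wing imaginal disc is an epithelial sac of the larva that gives rise to the wing and to the dorsal thorax. EGFR is a receptor tyrosine kinase that drives growth and survival of disc cells through Ras and ERK. A growing disc that keeps its epithelial layers is called hyperplastic, whereas a neoplastic disc loses cell polarity and tissue order, and can express matrix metalloproteases and Jun kinase (JNK) targets. Psq, the product of pipsqueak, is a BTB-domain DNA-binding protein that binds GAGA-like sequences and has been tied to Polycomb group silencing.

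Values are log2 expression levels, 1 per gene and array, so a difference of 1 is a 2-fold difference. The medians of the 19 arrays in the fit ran from 7.29 to 7.39, and the whole table from 2.67 to 14.19. Wing disc epithelium markers were present in both groups. Their mean level was 9.97 to 10.10 on the E_EHT arrays and 9.11 to 9.92 on the EP_LNT arrays, all above the array medians. EP_LNT replicate 4 stood nearer to E_EHT than the other EP_LNT arrays did. The SD of its gene-wise difference from an E_EHT array was 0.411 to 0.464, against 0.484 to 0.578 for the other EP_LNT arrays. It also differed from its own group in lncRNA:roX1, an RNA of the dosage compensation complex of male flies, which read 7.87 there and 12.14 to 12.39 on the other EP_LNT arrays. The E_EHT arrays read 12.49, 12.49 and 12.67 for this RNA. Counts of genes in a list are therefore given without replicate 4 as well, where leaving it out moved the count that rose or the count that fell by 1.5 times or more.

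Of the 13402 genes, 1342 rose and 1179 fell in EP_LNT against E_EHT (limma, Benjamini-Hochberg adjusted p under 0.05). This was 18.8% of the genes tested, 10.0% higher and 8.80% lower. The median log2 fold change was 0.44 among the genes that rose and -0.39 among those that fell, so most changes were well under 2-fold. At least 2-fold changes were seen for 188 genes that rose and 120 that fell, which is 2.30% of the genes tested. Among these 308 genes, the arrays of the groups did not overlap for 276, and over all genes they did not overlap for 29.0%. The number of genes that fell depended on single arrays. It was 600 without E_EHT replicate 3, 766 without EP_LNT replicate 1 and 566 with E_EHT replicate 1 kept, whereas the number that rose was 949, 1074 and 1362 in these fits. Without EP_LNT replicate 4, 1612 genes rose and 1449 fell, and with each array centred on its median 1393 rose and 786 fell. The share of genes that fell also moved with the length of the gene. It was 4.49% in the fifth of the genes with the shortest span and 17.0% in the fifth with the longest, while the share that rose was 10.8% and 9.72%.

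**Figure D1:**
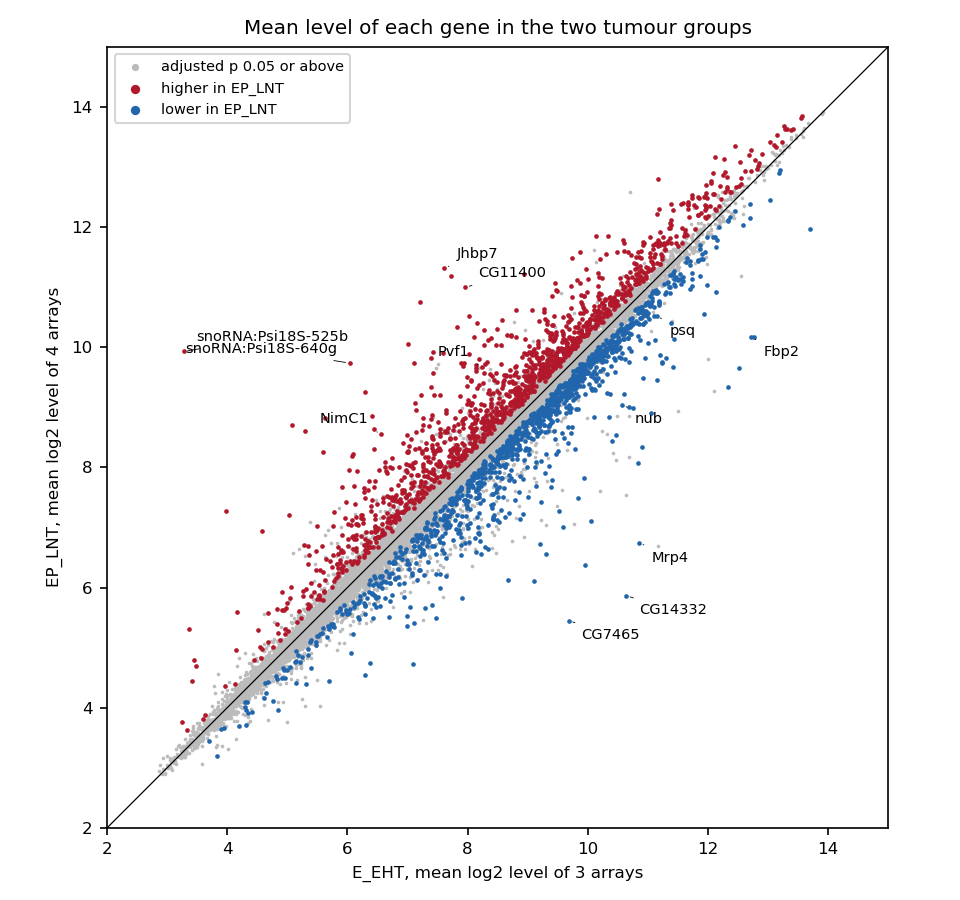
Mean log2 level of each of 13402 genes on the 3 E_EHT arrays (horizontal axis) and on the 4 EP_LNT arrays (vertical axis), with genes that rose in red, genes that fell in blue and the line of equal levels in black. Most coloured points lie close to the line, and the snoRNA genes, Jhbp7, CG11400, Mrp4, CG14332 and CG7465 lie far from it.

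psq itself, the gene aimed at by the RNAi, read 10.35, 10.54, 10.53 and 10.67 on the EP_LNT arrays and 11.12, 11.21 and 11.12 on the E_EHT arrays. The groups did not overlap, and the log2 fold change was -0.63 ± 0.10 (standard error; adjusted p = 0.000242), a 1.54-fold lower level. EP_EHT had a mean of 10.70 ± 0.18 (SD). At 12 hr the psqRNAi and the EGFR groups differed by -0.09 ± 0.09, which did not pass the test (adjusted p = 0.675). Where the array's probes lie relative to the RNAi target was not given, so this is a level and not a measure of knockdown. Egfr read 12.65 to 12.87 in EP_LNT and 12.73 to 12.84 in E_EHT, a difference of -0.04 ± 0.11 (adjusted p = 0.865), and no difference was detectable at this precision.

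The next question was which of the differences were already there at 12 hr between the same genotypes. The 12 hr groups hold other arrays than the tumour groups, but both comparisons come from one fit and share its estimate of the spread, so that the 12 hr calls are not independent of the tumour arrays. At 12 hr, 325 genes differed between EP_Ctrl and E_Ctrl, which is 2.43% of the genes tested. That number was 206 with E_EHT replicate 1 kept and 274 without E_EHT replicate 3, although neither array is in the 12 hr groups. Of the 325, 157 also differed between EP_LNT and E_EHT. They make up 48.3% of the 12 hr calls and 6.23% of the 2521 genes called between the tumours. The direction was the same for 147 of them (60 higher and 87 lower in both EP_Ctrl and EP_LNT) and opposite for 10. Because EP_LNT and E_EHT also differ in age, a direction between the tumours is not that of psqRNAi alone. The remaining 2364 genes called between the tumours were not called at 12 hr, which does not show that they were equal then. With E_EHT replicate 3 left out, 101 genes were called in both.

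The largest rise of all was that of snoRNA:Psi18S-525b, a small nucleolar RNA gene of the class that guides pseudouridine formation in 18S ribosomal RNA. It read 10.18, 10.15, 9.95 and 9.45 in EP_LNT, and 3.22, 3.40 and 3.20 in E_EHT. The E_EHT levels lay near the bottom of the table, where array values flatten, and the log2 fold change was 6.66 ± 0.26. Its neighbours snoRNA:Psi18S-640g and snoRNA:Psi18S-525d were higher by 3.70 ± 0.25 and 3.20 ± 0.21. In the RefSeq annotation (assembly Release 6 plus ISO1 MT) the first lies at chr2L:20418670-20418804, the second at chr2L:20421781-20421909 and the third at chr2L:20419145-20419281, so that all 3 fall within one short stretch of chromosome arm 2L. All 3 were already higher with psqRNAi at 12 hr, by 5.23, 3.62 and 2.08, and the means in EP_EHT were 8.88, 9.76 and 8.50. For snoRNA:Psi18S-525b every array with psqRNAi lay above every array without it, at every age.

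Other genes shared this pattern of a difference present at 12 hr. hpRNA:CR32207, a long hairpin RNA gene of the kind that yields small interfering RNAs, read 9.12 to 9.53 in EP_LNT and 6.17 to 6.39 in E_EHT (log2 fold change 2.96 ± 0.12, adjusted p = 4.24e-11), and it differed by 1.35 ± 0.11 at 12 hr. CG8916 read 8.42, 9.80, 8.19 and 8.01 against 5.02, 5.46 and 5.41, a rise of 3.31 ± 0.33, with 3.63 ± 0.30 at 12 hr. CG34278 rose by 3.62 ± 0.77 and differed by 2.83 ± 0.71 at 12 hr. Its neighbour on 3R, CG42779, rose by 3.30 ± 1.10 and was not called at 12 hr (adjusted p = 0.0659). Its call between the tumours was lost when any one of 6 of the 7 arrays was left out, all but EP_LNT replicate 4, with an adjusted p of 0.137 without E_EHT replicate 3.

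Mrp4 had the smallest adjusted p of all genes that fell. This gene for an ABC transporter of the multidrug resistance family lies at chr3R:11569250-11575937. It read 6.90, 6.77, 6.87 and 6.44 in EP_LNT and 10.80, 10.93 and 10.85 in E_EHT. The log2 fold change was -4.11 ± 0.12 (adjusted p = 1.3e-12), a 17.3-fold lower level. The gap between the genotypes was -4.86 ± 0.11 at 12 hr, and EP_EHT had a mean of 6.18 ± 0.17 (SD). ppk13, of the degenerin and epithelial sodium channel family, and the neighbouring CG33509 fell by 2.57 and 2.55 on the log2 scale. ppk13 spans chr2L:21086790-21088751 and CG33509 chr2L:21084605-21086506, and at 12 hr they differed by -1.35 ± 0.18 and -1.11 ± 0.22.

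**Figure D2:**
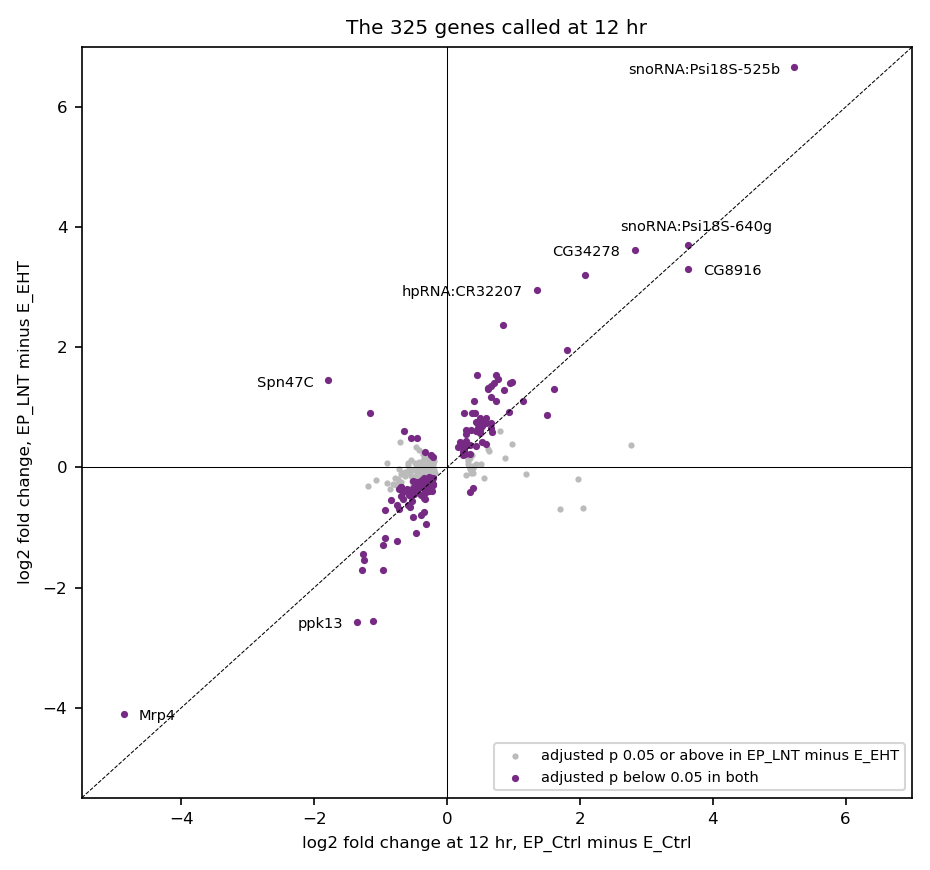
The 325 genes that differed between EP_Ctrl and E_Ctrl at 12 hr, with their log2 fold change at 12 hr (horizontal axis) and between EP_LNT and E_EHT (vertical axis); purple points are the 157 genes called in both and the dashed line marks equal values. snoRNA:Psi18S-640g, at 3.62 and 3.70, lies close to the dashed line, Mrp4 lies at the lower left, at -4.86 and -4.11, and Spn47C lies at the upper left, lower with psqRNAi at 12 hr and higher in EP_LNT.

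Spn47C, a serpin gene (serpins inhibit serine proteases), had opposite signs in the 12 hr and the tumour comparison. It read 8.95, 8.84, 8.75 and 7.79 in EP_LNT and 7.30, 7.18 and 6.93 in E_EHT, a rise of 1.45 ± 0.23 (adjusted p = 0.000314). At 12 hr it was lower with psqRNAi, by -1.79 ± 0.21 (adjusted p = 0.000113). EP_EHT, of the same age as E_EHT, had a mean of 6.25 ± 0.27 (SD), below that of E_EHT.

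Jhbp7, of the family of juvenile hormone binding proteins, read 11.99, 11.48, 11.47 and 10.33 in EP_LNT and 7.91, 7.46 and 7.48 in E_EHT (log2 fold change 3.70 ± 0.44, adjusted p = 2.93e-05). The mean in EP_EHT was 9.95 ± 0.80 (SD), between the other groups. Jhbp1 of the same family rose by 1.86 ± 0.41 whereas Jhbp2, which lies close to Jhbp1 on 3R, fell by 1.11 ± 0.25 on the log2 scale. Over the 17 measured genes of juvenile hormone synthesis, transport and response, 2 rose and 2 fell, and the median log2 fold change was -0.01. The counts were 3 and 3 without EP_LNT replicate 4.

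CG11400 and CG7367 had a tight spread in EP_LNT. CG11400 read 10.80, 11.04, 11.02 and 11.12 there and 7.70, 8.32 and 7.87 in E_EHT, a rise of 3.03 ± 0.18, and CG7367 rose by 2.5 ± 0.15. EP_EHT held intermediate means of 9.56 ± 0.43 and 8.51 ± 0.25 (SD). CG12481 read 10.81 to 11.57 in EP_LNT and 7.47 to 7.98 in E_EHT, a rise of 3.47 ± 0.25, with an EP_EHT mean of 8.76 ± 0.54. CG42711 and CG13046 rose by 3.04 ± 0.46 and 2.64 ± 0.26, and EP_LNT replicate 4 had the lowest level of both within its group. For CG34247 and CG13215 this array decided the size. CG34247 read 12.75 on replicate 4 and 9.95 to 10.37 on the other EP_LNT arrays, so that its rise of 3.54 ± 0.67 was 2.88 without that array. CG13215 read 9.87, 8.78, 8.43 and, on replicate 4, 5.92, close to the 5.55 to 5.67 of E_EHT, and its rise of 2.66 was 3.44 without it. The call of CG13215 was lost in a fit of the EP_LNT and E_EHT arrays alone (adjusted p = 0.0728).

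Other large falls were those of genes that were not called at 12 hr. CG15353 read 8.30, 8.44, 7.80 and 8.83 in EP_LNT and 10.89, 10.97 and 10.87 in E_EHT (log2 fold change -2.57 ± 0.28, adjusted p = 1.13e-05), and in EP_EHT its mean was still 10.74 ± 0.21 (SD). Vajk2 and Vajk3, neighbouring members of one gene family on 2L, had log2 fold changes of -2.95 ± 0.50 and -2.99 ± 0.60, and EP_EHT had means of 9.46 and 8.36 against 7.11 and 6.11 in EP_LNT. CG7465 read 5.29 to 5.57 in EP_LNT and 8.95 to 10.31 in E_EHT, a fold change of -4.23 ± 1.05. Its EP_EHT arrays were spread widely, with an SD of 1.81 about a mean of 6.58, and the mean in E_Ctrl at 12 hr was 6.37 ± 0.87 (SD), so that E_EHT stood above the younger group too.

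For some of these the E_EHT arrays disagreed with each other. CG14332 read 6.99, 12.24 and 12.69 in E_EHT and 5.43 to 6.16 in EP_LNT. Its log2 fold change of -4.78 ± 1.60 (adjusted p = 0.0461) was -6.60 without E_EHT replicate 2, -3.97 without replicate 3 and -3.75 without replicate 4, with an adjusted p of 0.189 in the last. With E_EHT replicate 1 kept it was -3.81 (adjusted p = 0.119). Its call was lost without any one array except E_EHT replicate 2. CG42500 read 9.54, 8.38 and 11.93 in E_EHT and 6.28 to 6.42 in EP_LNT. Its fold change of -3.57 was -4.36 without E_EHT replicate 3 and -2.58 without replicate 4. CG8664 fell by 2.76 on the log2 scale, which was 3.56 without E_EHT replicate 3, and its call was lost without EP_LNT replicate 3 (adjusted p = 0.0523) or E_EHT replicate 2 (0.0805) or 4 (0.097).

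yip7, Jon65Aiii and Jon65Aiv encode serine proteases of the Jonah group, known from the larval gut, and lie in one cluster on 3L. Jon65Aiii read 11.91, 6.56, 8.28 and 11.84 in EP_LNT and 12.08 to 13.13 in E_EHT. Replicates 1 and 4 of EP_LNT thus stood close to E_EHT, and replicates 2 and 3 far below. The fold changes were -3.0 ± 0.84 for yip7, -2.87 ± 0.95 for Jon65Aiii and -2.61 ± 0.88 for Jon65Aiv. The calls of all 3 genes were lost without EP_LNT replicate 3 (adjusted p = 0.0614, 0.121 and 0.132). They were also lost without E_EHT replicate 2 or 4, and those of Jon65Aiii and Jon65Aiv without E_EHT replicate 3 or EP_LNT replicate 2. Without EP_LNT replicate 2 the changes were -2.12, -1.84 and -1.65. Without EP_LNT replicate 4 they were -3.71, -3.60 and -3.33, and without EP_LNT replicate 1 those of Jon65Aiii and Jon65Aiv were -3.62 and -3.26. In a fit of the EP_LNT and E_EHT arrays alone none of the 3 calls was made (adjusted p = 0.131, 0.197 and 0.204).

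**Figure D3:**
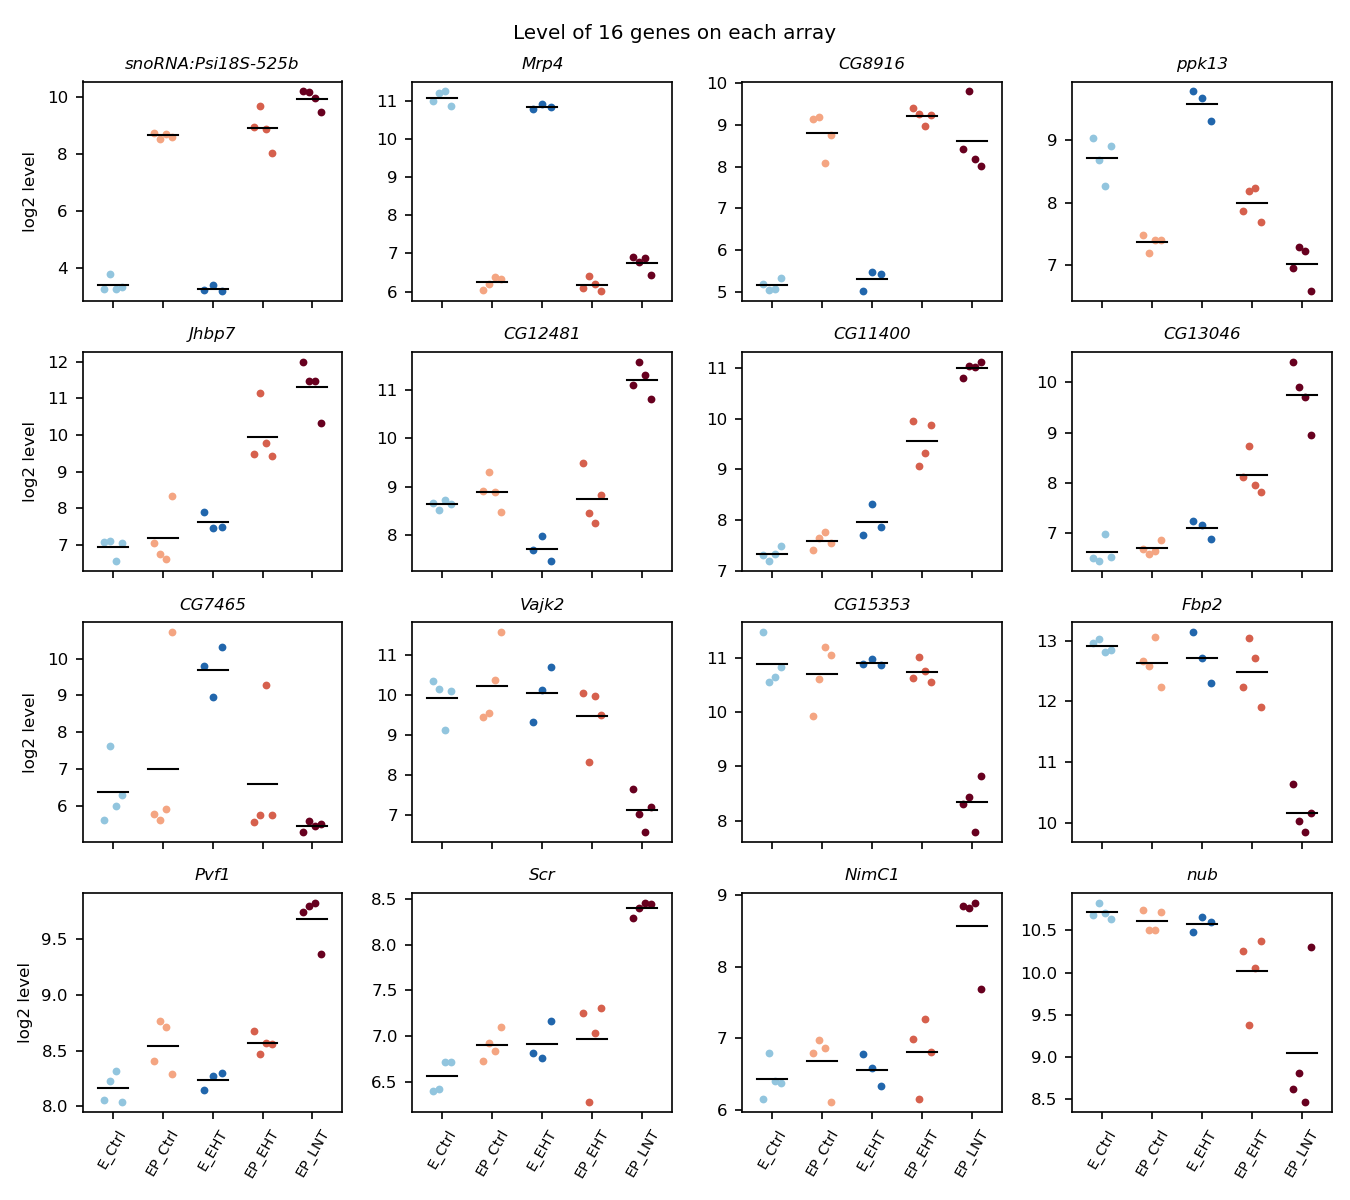
Log2 level of 16 genes on each array (points) with the group mean (bar), in the order E_Ctrl, EP_Ctrl, E_EHT, EP_EHT and EP_LNT. In the top row the psqRNAi groups stand apart from the EGFR groups at every age, in the second row EP_LNT is highest in mean, in the third row it is lowest in mean, and in the bottom row EP_LNT is highest for Pvf1, Scr and NimC1 and lowest in mean for nub.

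Genes were next read by pathway, beginning with ligands and receptors. Counts in a list stand against the 10.0% of all genes that rose, the 8.80% that fell and a median log2 fold change of 0 over all genes. The PDGF/VEGF-like pathway, in which the Pvf ligands bind the receptor tyrosine kinase Pvr, rose in 3 of its 4 genes (median 0.53). Pvf1 read 9.74, 9.79, 9.82 and 9.36 in EP_LNT and 8.15, 8.27 and 8.30 in E_EHT (log2 fold change 1.44 ± 0.12, adjusted p = 6.08e-07). The EP_EHT mean of 8.57 ± 0.08 (SD) was closer to that of E_EHT. Pvf2 rose by 0.63 ± 0.12 and Pvr by 0.42 ± 0.09. The difference in Pvf2 was already called between EP_Ctrl and E_Ctrl, before tumours formed, with a log2 fold change of 0.49. Pvf1, Pvf3 and Pvr were not called between those groups. The list mean was 8.28 to 8.57 in EP_Ctrl and 8.0 to 8.26 in E_Ctrl. Pvf3 had a log2 fold change of 0.43 ± 0.18 that did not pass the test (adjusted p = 0.118). It was called in 3 of 18 other settings, among them a fit of the EP_LNT and E_EHT arrays alone (adjusted p = 0.0401).

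In the EGFR and Ras list 4 of 16 genes rose and 3 fell, with 2 falls without EP_LNT replicate 4. Those that rose act in feedback on the pathway: edl (0.80 ± 0.09), which binds the ETS factors Pointed and Yan, aos (0.77 ± 0.11), the secreted inhibitor Argos, sty (0.75 ± 0.14), the inhibitor Sprouty, and Mkp3 (0.46 ± 0.09), an ERK phosphatase. sty read 11.52 to 11.67 in EP_LNT and 10.70 to 11.06 in E_EHT. The transcriptional repressor gene cic fell by 0.46 ± 0.12 on the log2 scale. That call was lost without E_EHT replicate 3 (adjusted p = 0.0595), and all falls of the list were lost with E_EHT replicate 1 kept.

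JNK signalling responds to stress, wounding and loss of polarity. Of its 17 genes 5 rose and none fell (median 0.23). mol, which encodes a maturation factor of the Duox NADPH oxidase, read 8.87, 8.90, 9.16 and 8.36 in EP_LNT and 7.79, 7.94 and 7.67 in E_EHT, a rise of 1.02 ± 0.18 (adjusted p = 0.000966). egr, the fly TNF ligand Eiger, read 10.46, 10.50 and 10.55 in EP_LNT and 9.44 on replicate 4, which lay within the 9.33 to 9.49 of E_EHT (rise of 0.85 ± 0.21). The call of egr was lost in a fit of the EP_LNT and E_EHT arrays alone (adjusted p = 0.0773). scaf, a JNK target that encodes a protease homologue, and msn, a kinase upstream of JNK, rose by 0.40 ± 0.13 and 0.34 ± 0.09. Both calls were lost without E_EHT replicate 3 (adjusted p = 0.0623 and 0.0535), without E_EHT replicate 4 or without EP_LNT replicate 2, and that of scaf also without EP_LNT replicate 1 or 3 or E_EHT replicate 2. Ets21C, an ETS factor induced by JNK, read 10.76 to 10.84 in EP_LNT and 9.94 to 10.40 in E_EHT, and did not pass the test (0.57 ± 0.21, adjusted p = 0.0698). It was called in 6 of 18 other settings, among them a fit of the EP_LNT and E_EHT arrays alone (adjusted p = 0.0187). Ilp8, the relaxin-like hormone by which damaged discs delay metamorphosis, was high in both tumour groups. It read 11.46 to 11.78 in EP_LNT and 11.03 to 11.54 in E_EHT, against a mean of 7.76 ± 0.21 (SD) in E_Ctrl, and its difference between the tumours was 0.36 ± 0.28 (adjusted p = 0.451).

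Of the Notch list 4 of 11 genes rose and 1 fell. The 4 lie in the Enhancer of split complex, whose genes are direct Notch targets. E(spl)m3-HLH rose by 1.14 ± 0.12, E(spl)mbeta-HLH by 0.81 ± 0.10, E(spl)m7-HLH by 0.70 ± 0.14 and E(spl)malpha-BFM by 0.61 ± 0.17. E(spl)m3-HLH read 11.64 to 11.89 in EP_LNT and 10.53 to 10.69 in E_EHT. The call of E(spl)malpha-BFM was lost without E_EHT replicate 2 (adjusted p = 0.0595) or 3 (0.0617).

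Transcripts of the Hedgehog list went the other way, with 6 of 12 genes lower and none higher (median -0.31). The ligand gene hh read 7.72, 7.83 and 7.69 in EP_LNT and 8.78 on replicate 4, against 9.18, 9.16 and 9.04 in E_EHT (log2 fold change -1.12 ± 0.19, adjusted p = 0.000704). shf, which encodes a secreted factor that stabilises Hedgehog, fell by 0.69 ± 0.13 on the log2 scale. The count of falls was 9 without EP_LNT replicate 4 and 2 with E_EHT replicate 1 kept. With the trend on gene length and level removed it was 2, beside 1 rise. The mean of the Hedgehog list was 9.47 to 9.93 in EP_LNT, 10.0 to 10.06 in E_EHT and 9.69 to 10.06 in EP_EHT. In the Dpp and activin list 2 of 14 genes fell, and 3 without EP_LNT replicate 4. Among the 2 was magu (-0.68 ± 0.14), which encodes a secreted modulator of Dpp. Fitted on the EP_LNT and E_EHT arrays alone, shf and magu missed the threshold (adjusted p = 0.0551 and 0.0509). In the Hippo and Fat list 2 of 13 fell, with ds, the atypical cadherin Dachsous, at -1.0 ± 0.17, and 4 fell and 2 rose without EP_LNT replicate 4. In the JAK/STAT list 1 of 9 genes rose (2 without that array) and 3 fell, and in the short Wingless list 1 of 5 fell and none rose.

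Patterning genes of the disc fell and rose by region. Of 19 wing pouch and hinge genes 10 fell and 1 rose (median -0.53), and 15 fell without EP_LNT replicate 4. Their list mean was 8.86 to 9.5 in EP_LNT, 9.61 to 9.74 in E_EHT and 9.03 to 9.77 in EP_EHT. nub, a POU factor of the pouch, read 8.62, 8.80 and 8.46 in EP_LNT and 10.30 on replicate 4, against 10.48, 10.66 and 10.60 in E_EHT (log2 fold change -1.54 ± 0.32, adjusted p = 0.00283). bi and salm, T-box and zinc finger targets of Dpp, changed by -1.44 ± 0.26 and -0.75 ± 0.11, and zfh2 of the hinge by -1.39 ± 0.19. vg, which specifies wing fate, and en, of the posterior compartment, both changed by -0.73 (± 0.18 and ± 0.13). Fitted on the EP_LNT and E_EHT arrays alone, nub and vg missed the threshold (adjusted p = 0.052 and 0.0528). pdm2, the paralogue of nub, read 7.24 to 7.38 on 3 EP_LNT arrays and 8.82 on replicate 4. It did not pass the test with that array (adjusted p = 0.0528) and passed without it (-1.27, adjusted p = 0.000251). Of 18 other settings 5 called pdm2, among them a filter on dim genes that kept replicate 4 (-0.89, adjusted p = 0.0355).

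Of 12 notum and proneural genes, 6 rose and 1 fell (median 0.42). ac, a proneural bHLH gene, read 11.04 to 11.10 in EP_LNT and 9.65, 10.03 and 9.92 in E_EHT, a rise of 1.20 ± 0.13 (adjusted p = 8.2e-06). tup, eyg and pnr, which encode LIM, Pax and GATA factors of the notum, rose by 1.10 ± 0.17, 0.99 ± 0.18 and 0.85 ± 0.13. l(1)sc and sc, neighbours of ac in the achaete-scute complex, both rose by 0.61, and their calls were lost without E_EHT replicate 3 (l(1)sc, adjusted p = 0.0849) and replicate 2 (sc, adjusted p = 0.0738). That of l(1)sc was also lost without E_EHT replicate 4 or EP_LNT replicate 1, and in a fit of the EP_LNT and E_EHT arrays alone (adjusted p = 0.124). At 12 hr ac and sc had means of 10.49 and 11.86 in E_Ctrl, above their E_EHT means of 9.87 and 11.37. In whole discs, fewer cells of a region and less RNA per cell cannot be told apart.

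Of the Hox genes and cofactors listed, pb, Dfd, Scr, Antp, ftz and zen were measured, while lab, Ubx, abd-A, Abd-B, exd and hth were not. Of the 6 measured genes only Scr rose. It acts in the labial and first thoracic segments. It read 8.29, 8.4, 8.46 and 8.45 in EP_LNT and 6.82, 6.76 and 7.17 in E_EHT (log2 fold change 1.49 ± 0.19, adjusted p = 4.58e-05), with a mean of 6.97 ± 0.48 (SD) in EP_EHT. Of the 16 measured Polycomb group genes and their partners, 7 fell and none rose (median -0.27). psq is one of the 7. Trl, the GAGA factor, fell by 0.49 ± 0.09 on the log2 scale and Sfmbt, a subunit of the Pho repressive complex, by 0.42 ± 0.07. The falls numbered 9, beside 1 rise, without EP_LNT replicate 4, 3 with E_EHT replicate 1 kept and 4 with the trend on gene length and level removed.

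Among structural genes, 7 of 21 basement membrane and integrin genes rose and none fell (median 0.36), and 12 rose without EP_LNT replicate 4. Mmp2, one of the 2 matrix metalloproteases of the fly, read 9.91, 9.79, 10 and 9.94 in EP_LNT and 8.82, 9.05 and 8.96 in E_EHT, a rise of 0.97 ± 0.18 (adjusted p = 0.00125). Timp, their inhibitor, rose by 0.82 ± 0.21, and its call was lost without E_EHT replicate 3 (adjusted p = 0.056) and in a fit of the EP_LNT and E_EHT arrays alone (0.094). SPARC, a collagen-binding protein made by haemocytes and fat body, read 10.21 to 10.39 on 3 EP_LNT arrays and 8.83 on replicate 4 against 8.55 to 9.44 in E_EHT. It missed the threshold with that array (0.89 ± 0.30, adjusted p = 0.0504) and passed without it (1.26, adjusted p = 0.000348). Its call did not hang on that array alone, since 9 of 18 other settings called SPARC. Among these were 2 that kept replicate 4, a filter on dim genes (adjusted p = 0.0338) and E_EHT replicate 1 kept (0.0485). Haemocyte markers, described below with the other cell types, were also higher on the same 3 arrays, and their part in the result was not tested. Apico-basal polarity and adherens junction genes had 4 of 17 lower and septate junction genes 4 of 17, with none higher in either. Neither count held with E_EHT replicate 1 kept, where both were 0. Of 7 measured cytoskeletal genes 3 rose and 1 fell.

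In the immune lists 5 of 18 Toll and Imd pathway components rose and 1 fell (4 and 2 without EP_LNT replicate 4). spz, the Toll ligand, read 9.05, 8.80, 8.86 and 7.81 in EP_LNT and 7.66, 7.37 and 7.61 in E_EHT, a rise of 1.09 ± 0.26. grass, a protease upstream of spz, rose by 0.93 ± 0.14. Of the 20 measured antimicrobial and Bomanin peptide genes, the targets of these pathways, none rose and 1 fell (Drsl3). Of 24 serpin genes 3 rose and 2 fell, which became 5 and 4 without EP_LNT replicate 4. Besides Spn47C, Spn88Ea rose by 0.62 ± 0.07.

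Of the 28 chitin enzymes and Idgf growth factors, 8 rose and 3 fell. serp and verm, neighbouring chitin deacetylase genes of 3L, rose by 0.63 ± 0.08 and 0.60 ± 0.07, and Cht6 by 0.71 ± 0.16. Both serp and verm were already called between EP_Ctrl and E_Ctrl, before tumours formed, at 0.28 and 0.45, and Cht6 was not. Idgf1 read 9.40, 9.30 and 9.13 in EP_LNT and 7.64 on replicate 4, which lay within the 6.99 to 7.70 of E_EHT (rise of 1.46 ± 0.36). Cht10, the largest fall of the list (-1.52 ± 0.39), likewise overlapped through replicate 4, which read 10.08. Both calls were lost without E_EHT replicate 4 (adjusted p = 0.0508 and 0.0503) and in a fit of the EP_LNT and E_EHT arrays alone (0.0656 and 0.0618). Of 25 cuticle protein genes 1 fell (2 without EP_LNT replicate 4) and none rose. The 1 was Cpr49Ag, with 8.60 to 9.30 in EP_LNT and 10.73 to 11.28 in E_EHT (-2.14 ± 0.20, adjusted p = 1.99e-06).

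**Figure D4:**
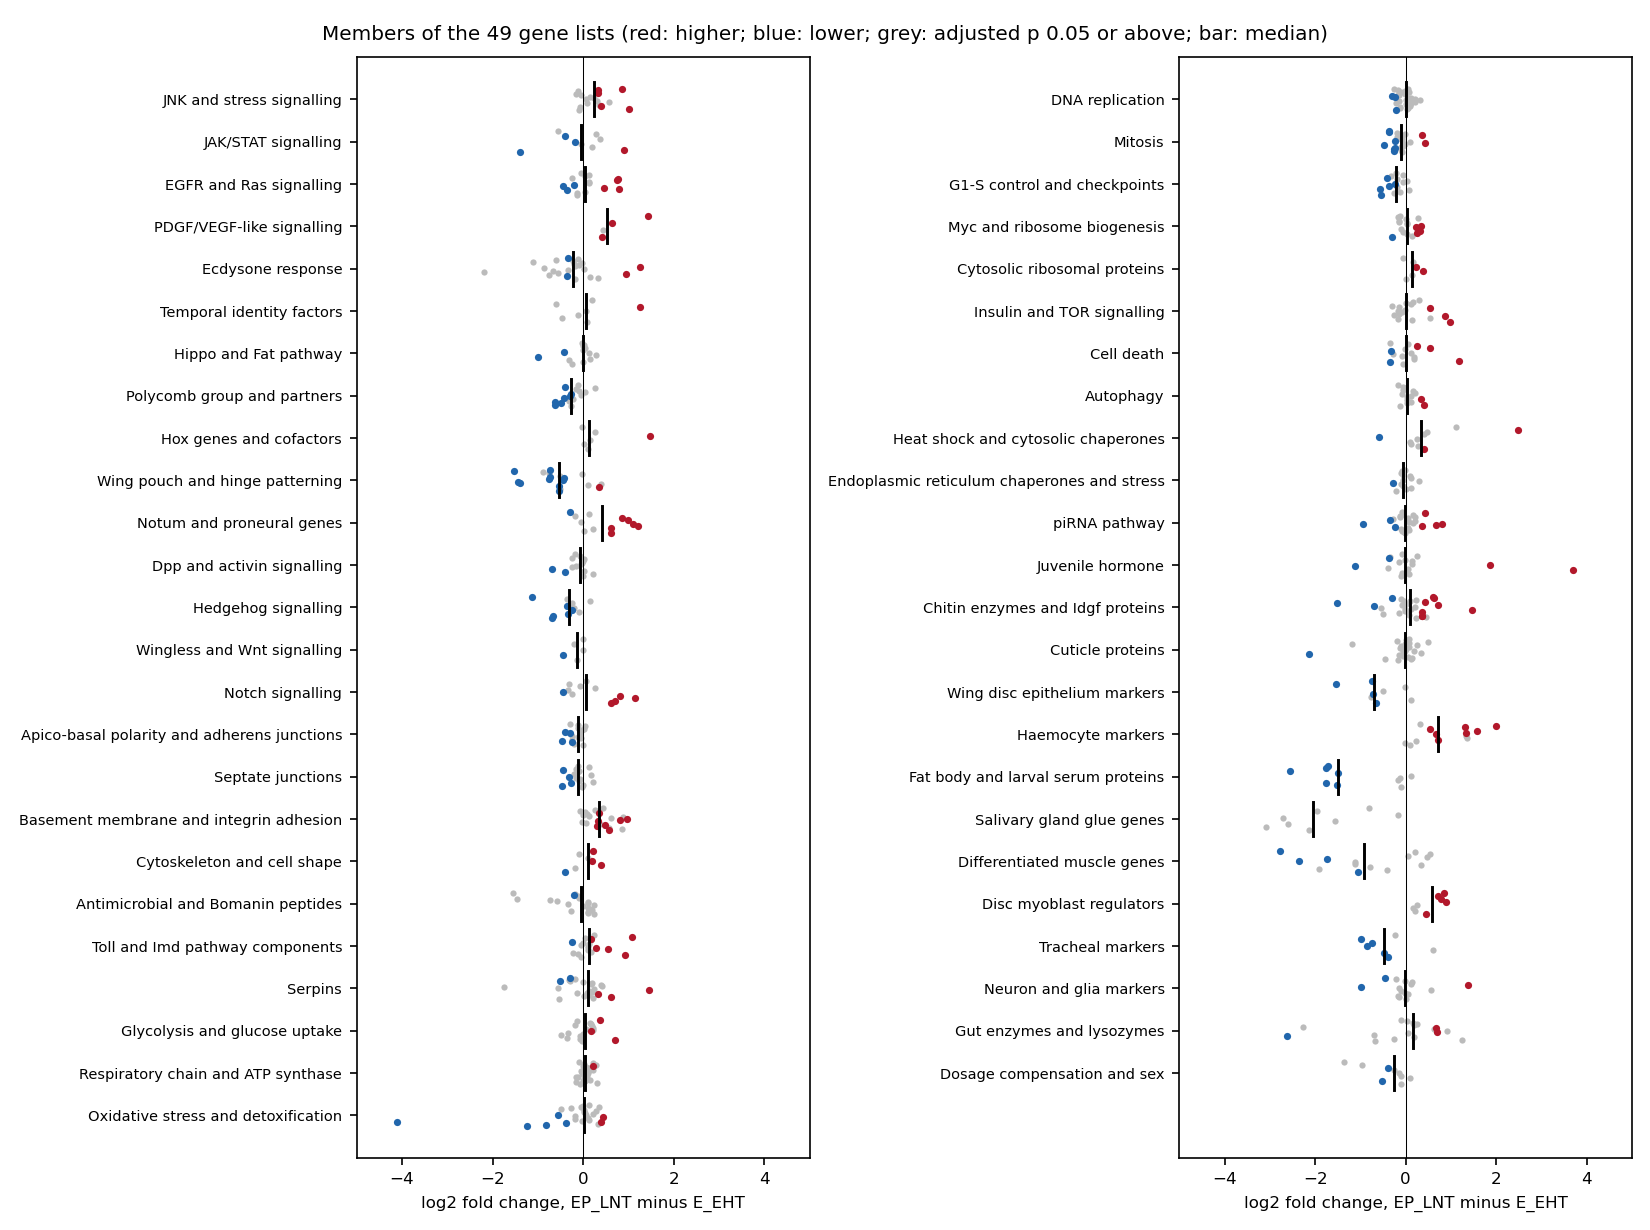
Log2 fold change between EP_LNT and E_EHT (horizontal axis) of each measured member of 49 gene lists (points), with members that rose in red, members that fell in blue, the others in grey, and the median of the list as a bar. Pouch, Hedgehog and Polycomb genes lie mostly left of 0, and PDGF/VEGF-like, notum, basement membrane and haemocyte genes mostly right of 0.

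Hormone and timing genes changed in few members. Of 22 ecdysone response genes 2 rose and 2 fell (median -0.21), and without EP_LNT replicate 4, 6 fell. Eip93F, a transcription factor that directs the adult programme of tissues, read 7.94, 8.4, 8.10 and 8.66 in EP_LNT and 6.70, 7.15 and 7.18 in E_EHT, a rise of 1.26 ± 0.19 (adjusted p = 0.000206). It was the only gene of 7 temporal identity factors that passed the test with all arrays, and 2 others of them fell without EP_LNT replicate 4. ImpL1, an ecdysone-inducible gene, rose by 0.95 ± 0.16. ImpE2, another, read 10, 8.35 and 8.71 in EP_LNT and 12.15 on replicate 4, against 11.63 to 12.45 in E_EHT. It did not pass with that array (adjusted p = 0.0962) and passed without it (-2.98, adjusted p = 0.013).

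In the insulin and TOR list 3 of 17 genes rose and none fell, and without EP_LNT replicate 4, 5 rose and 1 fell. ImpL2, a secreted antagonist of insulin-like peptides, read 10.47 to 10.97 in EP_LNT and 9.84 to 9.93 in E_EHT, a rise of 0.86 ± 0.12 (adjusted p = 9.45e-05). REPTOR-BP, the bZIP partner of the TOR-repressed factor REPTOR, rose by 0.97 ± 0.23, and S6k, the kinase activated by TOR, by 0.54 ± 0.10. In the glycolysis and glucose uptake list, which holds more than glycolytic enzymes, 3 of 18 genes rose and none fell. The largest rise was that of Hph, the HIF prolyl hydroxylase (0.70 ± 0.15), whose call was lost in a fit of the EP_LNT and E_EHT arrays alone (adjusted p = 0.0588). Of 28 genes of the respiratory chain and ATP synthase 1 rose and none fell. Of 18 Myc and ribosome biogenesis genes 5 rose and 1 fell, with nclb at 0.34 ± 0.08 and the RNA polymerase I factor Tif-IA at 0.27 ± 0.05. Of 6 measured cytosolic ribosomal protein genes 2 rose, and 3 without EP_LNT replicate 4.

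Of 30 DNA replication genes none rose and 3 fell (median 0), of 22 mitosis genes 2 rose and 7 fell (median -0.10), and of 15 genes of the G1-S transition and checkpoints 5 fell and none rose (median -0.20). grp, the checkpoint kinase Chk1, changed by -0.56 ± 0.10. The centromeric histone gene cid and the cyclin gene CycB changed by -0.48 ± 0.11 and -0.36 ± 0.09, and borr, a subunit of the chromosomal passenger complex, rose by 0.37 ± 0.07. The differences in cid and borr were already called between EP_Ctrl and E_Ctrl, before tumours formed, at -0.69 and 0.34. Those in grp and CycB were not called between these groups. The call of CycB was lost with E_EHT replicate 1 kept (-0.26, adjusted p = 0.101). With E_EHT replicate 1 kept the falls numbered 0 for replication, 1 for mitosis and 3 for G1-S genes.

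In the cell death list 3 of 14 genes rose and 2 fell. Corp, a regulator of p53, read 6.96 to 7.95 in EP_LNT and 6.24 to 6.42 in E_EHT (rise of 1.19 ± 0.16, adjusted p = 0.000107), and the initiator caspase gene Dronc rose by 0.53 ± 0.10. Of 15 autophagy genes 2 rose, with the p62 homologue ref(2)P at 0.40 ± 0.08. The rises numbered 4 without EP_LNT replicate 4 and 0 with E_EHT replicate 1 kept, where ref(2)P had a log2 fold change of 0.23 (adjusted p = 0.248). Of 25 genes of oxidative stress and detoxification 2 rose and 5 fell. Besides Mrp4, the cytochrome P450 genes Cyp4e2 and Cyp6g1 changed by -1.25 ± 0.20 and -0.81 ± 0.20 and the glutathione transferase gene GstS1 by -0.55 ± 0.10, while the thioredoxin gene Trx2 rose by 0.43 ± 0.11. Of 10 heat shock and chaperone genes 2 rose and 1 fell. Hsp70Bbb, one of several near-identical Hsp70 copies whose signals the probes may share, read 10.30 to 10.89 in EP_LNT and 7.64 to 8.41 in E_EHT, a rise of 2.49 ± 0.55. In E_Ctrl at 12 hr its mean was 10.07 ± 0.64 (SD), above that of E_EHT. Hsp27 fell by 0.60 ± 0.17 on the log2 scale, and its call was lost without E_EHT replicate 3 (adjusted p = 0.0619) or 4 or EP_LNT replicate 1 or 2, and in a fit of the EP_LNT and E_EHT arrays alone (0.0963). Of 14 endoplasmic reticulum chaperone and stress genes 1 fell and none rose, and without EP_LNT replicate 4, 2 fell and 1 rose.

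The piRNA pathway, which silences transposons in the germ line and its support cells, had 4 of 25 genes higher and 3 lower (5 and 2 without EP_LNT replicate 4). The Tudor-domain genes SoYb and BoYb rose by 0.80 ± 0.11 and 0.68 ± 0.15 and the Argonaute gene AGO3 by 0.43 ± 0.09. In a fit of the EP_LNT and E_EHT arrays alone BoYb missed the threshold (adjusted p = 0.0688). cuff, which protects piRNA precursors in the nucleus, fell by 0.94 ± 0.11 on the log2 scale. cuff read 7.13 to 7.33 in EP_LNT and 8.03 to 8.27 in E_EHT, with an EP_EHT mean of 8.15 ± 0.19 (SD).

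Markers of other cell types that a disc sample could hold were read in the same way. Haemocytes are the blood cells of the larva, and 7 of 13 of their markers rose with none lower (median 0.71). The mean level of the list was 9.28 to 9.45 on EP_LNT replicates 1 to 3, 8.06 on replicate 4 and 7.90 to 8.61 in E_EHT. In EP_EHT it was 7.92 to 8.6. Without replicate 4, 10 markers rose. NimC1, a phagocytosis receptor of plasmatocytes, read 8.85, 8.82, 8.89 and 7.69 in EP_LNT and 6.78, 6.58 and 6.33 in E_EHT (log2 fold change 2.0 ± 0.30, adjusted p = 0.000202). He, its neighbour on 2L, rose by 1.57 ± 0.32 and NimC4 by 1.32 ± 0.14. The scavenger receptor gene Sr-CI rose by 1.32 ± 0.34, a call that was lost without E_EHT replicate 3 (adjusted p = 0.0668) or 4 (0.0605) and in a fit of the EP_LNT and E_EHT arrays alone (0.074). PPO1 and PPO2, the prophenoloxidases of crystal cells, read 10.99 to 11.41 and 11.57 to 11.99 on EP_LNT replicates 1 to 3. On replicate 4 they read 7.71 and 8.46, below every E_EHT array, and they passed the test without it (log2 fold changes of 2.18 and 2.17).

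Myoblast regulators, expressed by the muscle precursors beneath the notum epithelium, had 5 of 8 genes higher and none lower (median 0.58). twi, a bHLH factor of the mesoderm, read 10.75 to 11.24 in EP_LNT and 10.05 to 10.28 in E_EHT, a rise of 0.84 ± 0.10 (adjusted p = 2.56e-05). zfh1, htl (an FGF receptor) and Him rose by 0.89 ± 0.19, 0.72 ± 0.16 and 0.78 ± 0.14, of which htl missed the threshold in a fit of the EP_LNT and E_EHT arrays alone (adjusted p = 0.0578). Of 14 genes of differentiated muscle 4 fell and 10 did not pass the test, and 5 of the 14 had log2 fold changes above 0 (median of the list -0.91). Without EP_LNT replicate 4, 5 fell and 1 rose. Among the 4 were Mlc1, the myosin alkali light chain, at -2.77 ± 0.66 and the troponin C gene TpnC73F at -2.35 ± 0.65. The call of TpnC73F was lost without E_EHT replicate 2 (adjusted p = 0.067) or 4 (0.0862).

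Fat body and larval serum protein genes fell in 6 of 10 (median -1.50). Fbp2 read 10.63, 10.02, 9.85 and 10.16 in EP_LNT and 13.14, 12.72 and 12.31 in E_EHT (-2.56 ± 0.25, adjusted p = 4.54e-06). Obp99b and Lsp2, the larval serum protein 2, changed by -1.75 ± 0.32 and -1.73 ± 0.20, and Fbp1 by -1.76 ± 0.45, a call that was lost without E_EHT replicate 3 (adjusted p = 0.0662). The list mean was 8.30 to 8.51 in EP_LNT and 9.36 to 9.64 in E_EHT, with no overlap. In EP_EHT it was 8.94 to 9.43. Salivary gland glue genes had a median of -2.05 and no call among 8. Their list mean was 5.76 to 8.4 in EP_LNT and 7.12 to 11.58 in E_EHT, and Sgs8 ranged from 8.73 to 13.02 in E_EHT alone. The part of other larval tissue in the disc samples was not tested.

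Tracheal markers fell in 5 of 7 genes (median -0.48), and without EP_LNT replicate 4, 5 fell and 1 rose. The falls numbered 2 with E_EHT replicate 1 kept and 3 with the trend on gene length and level removed, each beside 1 rise. kni and knrl, which also act in the wing vein primordia, changed by -0.85 ± 0.12 and -0.74 ± 0.10. Of 15 neuron and glia markers 1 rose and 2 fell. The 1 that rose was moody, a receptor of the glial blood-brain barrier, with 9.0 to 9.54 in EP_LNT and 7.78 to 8.10 in E_EHT (1.37 ± 0.16, adjusted p = 3.05e-05). Of 17 gut enzymes and lysozymes 2 rose and 1 fell, and with E_EHT replicate 1 kept 0 rose and 2 fell. Mal-A1, a maltase gene of the gut, read 10.30 on EP_LNT replicate 1 and 5.53 to 5.93 on the others. Of 9 dosage compensation and sex genes 2 fell (3 without EP_LNT replicate 4 and 0 with E_EHT replicate 1 kept) and none rose. The 4 lower among 8 wing disc epithelium markers are nub, vg, en and grh, and the median of that list was -0.70. Leaving out EP_LNT replicate 4 gave 6 lower.

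**Figure D5:**
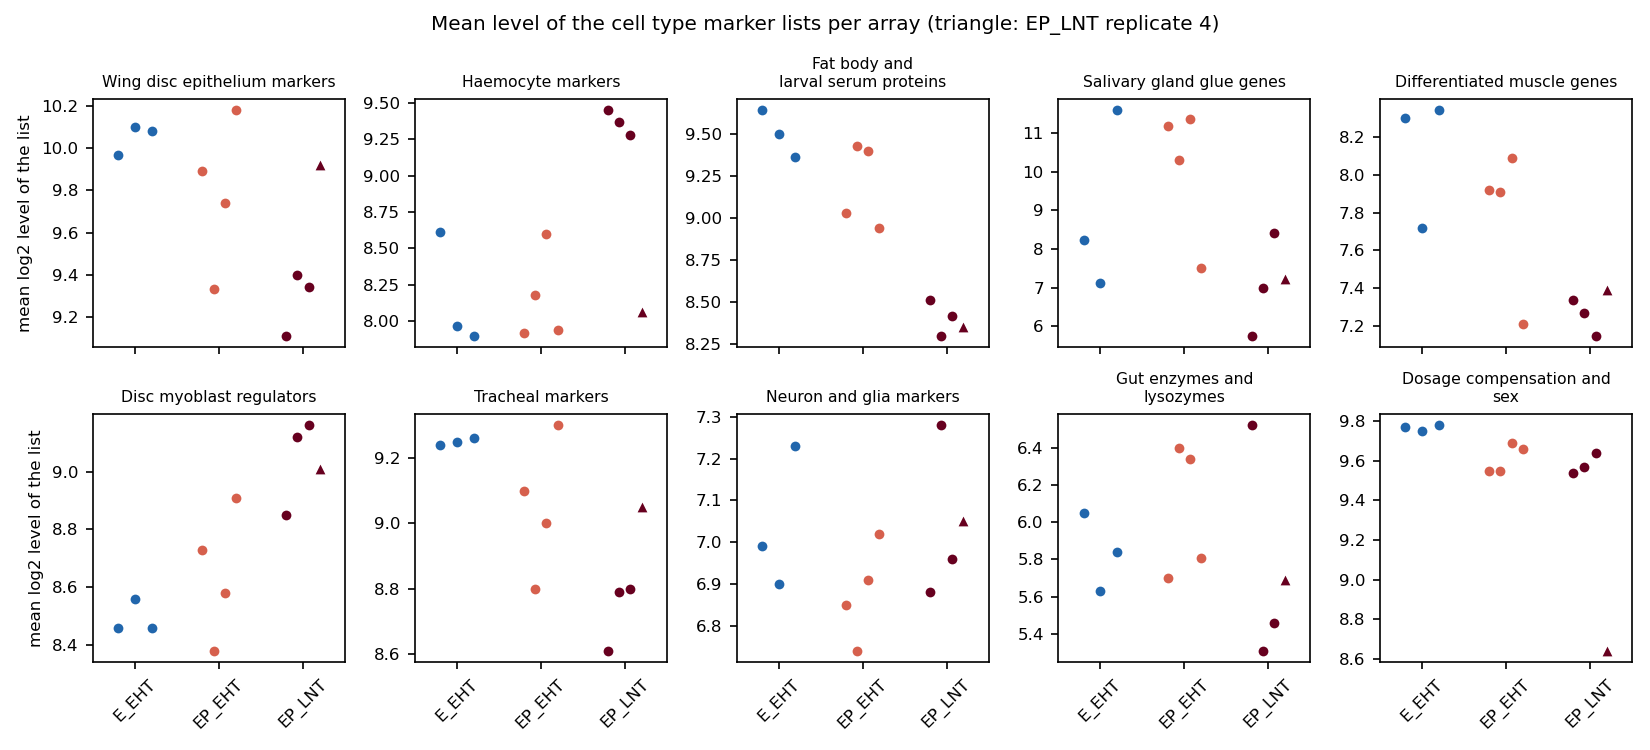
Mean log2 level of each of 10 cell type marker lists (vertical axis) on each array of E_EHT, EP_EHT and EP_LNT (points; the triangle is EP_LNT replicate 4). Haemocyte markers are highest on EP_LNT replicates 1 to 3, between 9.28 and 9.45, with replicate 4 at 8.06, and fat body markers are lowest on all 4 EP_LNT arrays.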

How the data were processed

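The authors deposited log2 levels that RMA had made from Affymetrix arrays, per the submitters' processing notes, which also name limma and give no versions. RMA evens out the distributions of the arrays. A change shared by most genes would therefore be lost, and differences among dim probe sets are shrunk. Arrays have no read depth; their number limits the precision, and the median standard error here was 0.1 (log2).

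Of 16322 probe sets, 13441 carried 1 gene symbol in the platform annotation, 555 several and 2326 none used here. For 37 genes with several probe sets the one with the highest mean was used, which left 13402 genes. Coordinates are those of genes, not probes, from RefSeq.

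Group means were fitted jointly to 19 arrays, with 14 residual and 2.63 prior degrees of freedom (limma 3.58.1, lmFit then eBayes, under R 4.3.3). P-values are two-sided and adjusted by Benjamini-Hochberg over 13402 genes, at a threshold of 0.05. Data of these group sizes were simulated with independent normal noise per gene and 200 of 13402 genes changed in EP_LNT. There the fit recovered 77% of 1.5-fold and 92% of 2-fold changes, with 6.63% false among its calls. The simulation held no deviating array and no trend on gene length, so 6.63% is not the error rate of the calls in the real data. Samples are called biological replicates without naming their source animals, so p-values measure the spread between these samples.

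The groups, the 49 gene lists (743 measured of 935 entries) and the members were chosen with earlier results of these data known. Named are psq and Egfr, and up to 15 of the largest rises and falls of at least 2-fold with no overlap between groups. Also named are up to 6 members of each list by size of change, and up to 8 genes called in both comparisons. Drsl3 was named after its value was seen, because it alone made up a count. Comparisons of EP_EHT with either tumour group would share arrays with the main one, so its levels are only set beside theirs. Alternatives tried were other normalization, filters, variance models, array weights, probe set choices, a replicate block, and each array left out.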

Additional observations from a re-analysis of the deposited data

Results flagged for a closer look

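In EP_LNT, the only group of the comparison with 4 arrays, the highest or lowest array stood far from the others by Dixon's ratio for 25 of 181 sets of values tested, 132 genes and 49 list means. The 132 genes are those chosen for description here, with earlier results known, out of 311 that the naming rule gave. The 5% that chance alone would flag among unchosen genes is therefore no yardstick for this share. Genes of a list are also not independent. On 23 of the 25 the array that stood apart was EP_LNT replicate 4. Its level was low where other EP_LNT arrays were above E_EHT for Pvf1 (9.36), egr (9.44), SPARC (8.83), Idgf1 (7.64), NimC1 (7.69), Sr-CI (10.26), PPO1 (7.71), PPO2 (8.46), moody (9.0), S6k (10.81) and Jhbp1 (8.63). It was high where the others were below E_EHT for hh (8.78), magu (10), pdm2 (8.82), kni (9.37) and grp (10.25). It was also high for CG34247 (12.75) and ImpL1 (6.58) and low for lncRNA:roX1 (7.87), and for these 3 genes replicate 4 lay farther from E_EHT than the other EP_LNT arrays did. The list means that stood apart on this array were those of ecdysone response (9.18, others 8.47 to 8.56), Myc and ribosome biogenesis (9.62, others 9.72 to 9.74), haemocyte markers (8.06) and dosage compensation and sex (8.64, others 9.54 to 9.64). Over the 276 genes of at least 2-fold change with no overlap, 213 lay nearer to E_EHT on replicate 4 than on the mean of the other EP_LNT arrays, against 62 to 94 for each of the others. On 2 genes another array stood apart: Mal-A1 read 10.30 on replicate 1, and CG42500 read 6.28 on replicate 2, with 6.41 to 6.42 on the others.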

How the results depend on the processing

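The 2521 genes called between EP_LNT and E_EHT became 1928 with E_EHT replicate 1 kept and 3859 with array weights, in which EP_LNT replicate 4 weighed 0.413, and 1549 to 3061 with single arrays left out. The 1342 that rose became 925 to 1612 with single arrays left out. The 1179 that fell became 566 with E_EHT replicate 1 kept, 1894 with array weights and 600 to 1449 with single arrays left out. The 308 of at least 2-fold became 270 to 407. At 12 hr the 325 calls became 206 with E_EHT replicate 1 kept, 873 with array weights and 273 to 340 with single arrays left out, and the 157 called in both became 99, 360 and 101 to 169. The other planned settings (a second quantile normalization, median centring, a filter on dim genes, trended robust variance, only the arrays of both tumour groups, another probe set per gene, all probe sets) kept these counts within 1.5 times. Centring on medians gave 1393 higher and 786 lower genes. The replicate block gave 2398 genes. The deviations of EP_LNT and E_EHT samples with the same number correlated by -0.126 to 0.0802. No pairing by number was seen, but so few arrays cannot exclude it. In 2 settings chosen after seeing the data, 2904 genes were called without EP_LNT replicate 4 and without the other groups, and 2018 with the trend on gene length and level removed. Of 120 named genes that were called, 90 kept their call in every setting run, and a fit of only both tumour groups lost 18. Over all settings the members called ran from 7 to 15 for pouch and hinge genes that fell, 5 to 6 for notum genes that rose, 3 to 10 for Polycomb and 2 to 10 for Hedgehog genes that fell, 3 to 12 for basement membrane and 5 to 10 for haemocyte genes that rose, and 4 to 6 for fat body genes that fell. Egfr, not called, turned to 0.1 with E_EHT replicate 1 kept and to 0.09 with the trend removed. The cause of these changes was not tested.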

Other observations

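The genes called between the tumours were spread over all major chromosome arms. The share called was 17.7% on X, 19.3% on 2L, 20.9% on 2R, 19.2% on 3L, 18.1% on 3R and 18.8% of the 69 genes on 4, while none of the 35 genes on Y was called. Among the genes that changed at least 2-fold, 80 of the 188 that rose and 52 of the 120 that fell are known in the files only by a CG number, as are 42.8% of all genes tested.

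Of the genes called both at 12 hr and between the tumours, 10 differed in opposite directions, 8 of them lower with psqRNAi at 12 hr and higher in EP_LNT. Beside Spn47C, CG31955 went from -1.16 at 12 hr to 0.91 and the metalloprotease gene AdamTS-A from 0.35 to -0.41. These genes were chosen for their opposite signs.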
